A study of Cucumis melo with 12 samples.

Results

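The change in leaf messenger RNA over 12 h at 4 °C was compared between 2 melon (Cucumis melo) varieties, 162, which the labels call chilling-tolerant, and 13-5A, which they call chilling-sensitive. The quantity followed here is the variety by chilling interaction, that is, the change from 0 h to 12 h in 162 minus the same change in 13-5A. All 12 libraries of the series enter it, and they fall into 4 groups of 3: 162 at 0 h, 162 at 12 h, 13-5A at 0 h and 13-5A at 12 h. Leaves of 0 h carry the 4 °C label too, and were taken here to mark the beginning of the cold. No group stayed unchilled until 12 h, so cold and elapsed time, including time of day, cannot be told apart in either variety. No mutation or transgene is named in the labels, and plant age is not given there. Nothing in the labels ties the 3 libraries of a group to different plants, so the p-values reflect how these samples vary, and part or all of that variation may be technical.

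Melon is a warm-season crop whose leaves are injured by temperatures above freezing that hardier plants endure. In the model plant Arabidopsis, cold is followed within hours by a cascade of transcription factors and then by genes that protect membranes and proteins, while many genes of growth and photosynthesis are turned down. A difference between varieties in such a response can take several forms, since a gene may move in one of them, move further in one than in the other, or start from unequal levels and end at equal ones. An interaction test asks whether the changes differ, which is a separate question from whether each change passes a test of its own.

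Levels are in FPKM, fragments scaled to gene length and library size, divided by a median-ratio factor per library. Factors ran from 0.879 to 1.14. The rule kept 15592 of 21691 genes, those whose mean reached 1 FPKM. The lowest mean kept was 1.0001 and the highest left out was 0.9995 FPKM. Differences are of log2(FPKM + 1), so the changes of low genes appear smaller than they are. A gene was called at a Benjamini-Hochberg adjusted p under 0.05 from limma and a log2 difference of at least 1 in size, which is 2-fold on that scale. The deposited identifiers carry no gene names and 0 of them are in the available name table, so genes are given by identifier, no function is stated, and leaf markers were not looked up. Library totals recovered from the values ran from 41299369 to 45355323. Within groups, correlations of log2 levels lay between 0.950 and 0.987, and the lowest was that between replicates 1 and 2 of 162 at 0 h. In leaf tissue, less RNA per cell and fewer cells of a type cannot be told apart.

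The varieties differed in their change over 12 h in 445 genes, 2.85% of those tested. The interaction was positive, with the change in 162 above that in 13-5A, in 265 genes (1.7%), and negative in 180 (1.15%). By comparison, 18.9% of genes were called for the change within 162 and 22.0% for the change within 13-5A. The typical called gene had an interaction of 1.41 in size on the log2 scale, and 40 positive and 31 negative genes reached 2, a 4-fold difference between the changes. Extremes were 3.81 and -4.15, the latter in a gene nearly without reads in 162. Over all tested genes the median interaction was 0.01, with 90% of genes lying between -0.87 and 0.84. The median size of the interaction was 0.30, against 0.47 for the change in 162 and 0.49 for that in 13-5A.

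The split into positive and negative genes rested on the scaling of the libraries. With FPKM as deposited, 532 genes were called (3.41%), of which 162 were positive and 370 negative, so that 30.5% of calls were positive in place of 59.6%. The median of all genes then lay at -0.16, and the equal-total scale gave 32.1% positive. Upper-quartile scaling and factors from genes of at least 10 FPKM gave 56.7% and 59.2%. Of the 445 genes, 329 were called with the same sign under all 4 other scalings, and they comprised 152 positive and 177 negative genes. At an unadjusted p under 0.05, 3094 genes (19.8%) had an interaction, and 592 passed the adjusted threshold without the fold minimum.

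**Figure D1:**
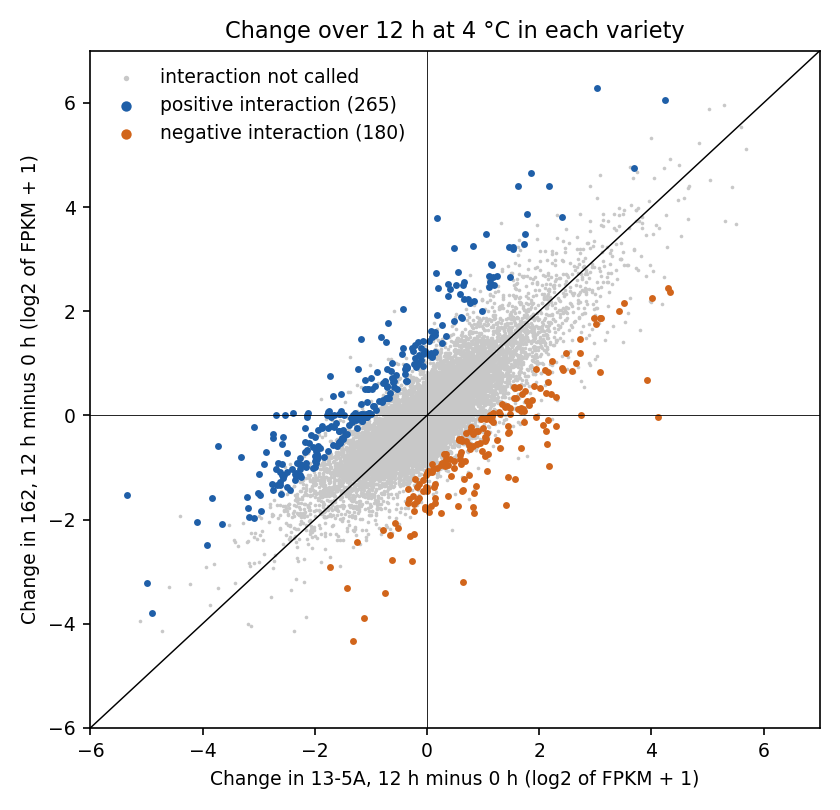
Each point is a tested gene, with the log2 change over 12 h in 13-5A on the x axis and in 162 on the y axis; the diagonal marks equal changes. The 265 positive interactions lie above the diagonal and the 180 negative ones below it, many of them near an axis, where the gene moved little in one variety.

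Among genes with an interaction, the larger change was more often the one in 13-5A. It was larger in 13-5A for 273 of the 445 genes and larger in 162 for 172, so 61.3% had the larger change in the sensitive variety, against 53.4% of all tested genes. In 179 genes the change was called in 13-5A and not in 162, and in 109 it was called in 162 and not in 13-5A. Of these single-variety calls 62.2% were in 13-5A, close to the 60.2% among all genes called in a single variety, so this majority was near that of the tested genes as a whole. A further 78 genes were called in the same direction in both, 5 in opposite directions, and 74 in neither variety although the difference between the changes was called. The estimated changes had opposite signs in 181 of the 445 genes. The larger change was more often that in 13-5A in each of the 23 other fits run, which changed the processing or left out a library. The share ranged from 52.7% to 62.4%, with 55.3% for FPKM as deposited and 54.7% for equal totals. Its lowest value, without replicate 2 of 162 at 0 h, was under the 53.4% of all tested genes. That share of all tested genes was not computed for each fit. These sortings use the same libraries as the interaction and are descriptions.

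Most genes called in a single variety had no called interaction. Of 942 genes called in 162 and not in 13-5A, 109 had an interaction, which is 11.6%. Of 1425 genes called in 13-5A and not in 162, 179 had one, or 12.6%. Among the 2007 genes called alike in both varieties the figure was 3.89%, and among the 11213 called in neither it was 0.66%. For the remaining genes called in a single variety, a difference between varieties was not shown.

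**Figure D2:**
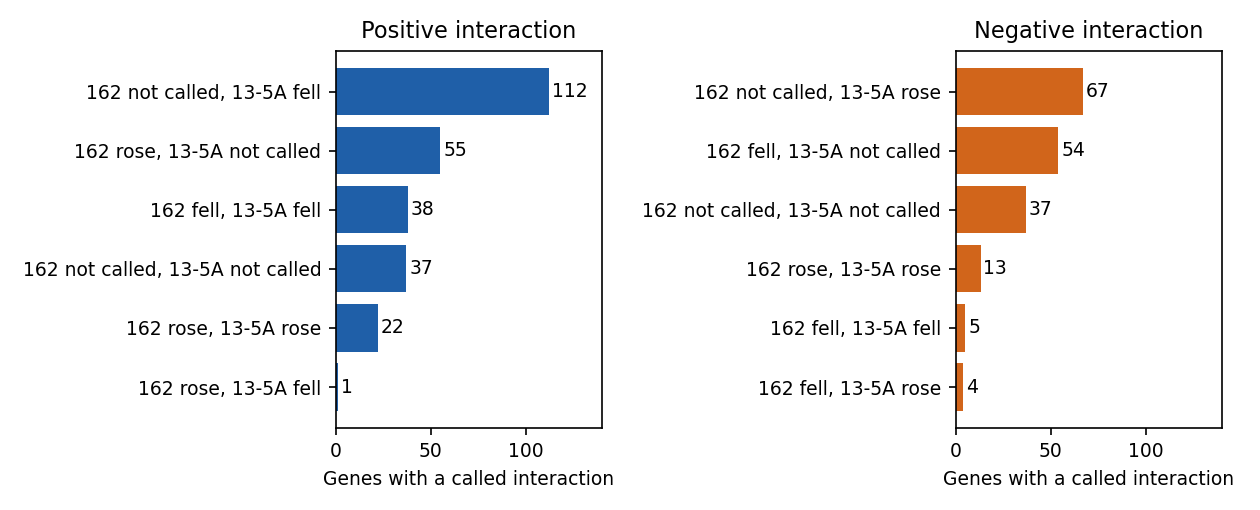
Bars give the number of genes with a called interaction in each response pattern, with positive interactions on the left and negative ones on the right; rose and fell stand for a called change within the variety. The longest bars are 112 genes that fell in 13-5A without a call in 162 and 67 that rose in 13-5A without a call in 162.

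Under median-ratio scaling the most frequent pattern was a fall in 13-5A that was not called in 162, with 112 genes. With FPKM as deposited and with equal totals the most frequent one was instead a rise in 13-5A not called in 162, with 127 and 112 genes, and the fall had 55 and 58. Of the 112 genes that fell in 13-5A under median-ratio scaling, 85 had at least 1 FPKM in both varieties. The others averaged under 1 FPKM in a variety. The median level of all 112 went from 24.1 to 5.75 FPKM in 13-5A and from 7.42 to 4.89 FPKM in 162. These medians thus started apart and ended close. The same held for the medians of 38 genes that fell in both varieties but further in 13-5A. They went from 29.6 to 2.84 FPKM in 13-5A, against 9.29 to 2.75 FPKM in 162, and 37 of the 38 had at least 1 FPKM in both. Over all tested genes, 10.9% were called as falling in 13-5A and 8.72% in 162.

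MELO3C002247.2 had the largest interaction among the genes of the first of these patterns with at least 1 FPKM in both varieties. In 13-5A its 3 libraries stood at 41.3, 48.7 and 59.6 FPKM at 0 h and at 2.94, 3.88 and 5.81 FPKM at 12 h. In 162 they stood at 13.2, 10.3 and 8.11 FPKM at 0 h and at 4.86, 4.56 and 7.32 FPKM at 12 h. The times did not overlap in either variety, yet the gene was lower in 162 at the start by -2.15 (SE 0.24, adjusted p = 4.87e-05) and the varieties differed by 0.35 (SE 0.24, adjusted p = 0.321) at the end. Its log2 change was -3.31 (SE 0.24) in 13-5A and -0.81 (SE 0.24, adjusted p = 0.0149) in 162, the latter short of the fold minimum. The interaction was 2.50 (SE 0.34, adjusted p = 0.00369).

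MELO3C029545.2 had the largest positive interaction of all and fell in both varieties. At 0 h it was abundant in all 6 libraries, with 201, 338 and 209.6 FPKM in 162 and 399, 305 and 426 FPKM in 13-5A. At 12 h the 162 libraries held 97.6, 89.2 and 66.1 FPKM and those of 13-5A 7.27, 6.02 and 12.4 FPKM. The varieties overlapped at 0 h and were far apart at 12 h, where the lowest 162 library was above every 13-5A library. The fall was -1.53 (SE 0.27) in 162 and -5.34 (SE 0.27) in 13-5A, an interaction of 3.81 (SE 0.38, adjusted p = 0.000387). The adjusted p was at most 0.00299 over the 23 other fits.

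Genes that rose in 162 without a call in 13-5A numbered 55, and genes that rose in both but further in 162 numbered 22. In the former the median level went from 8.68 to 29.5 FPKM in 162 and from 16.5 to 19.9 FPKM in 13-5A. In the latter the start was low in both varieties, at a median of 0.736 FPKM in 162 and 1.54 FPKM in 13-5A, and the end was 20.8 and 13.3 FPKM. Of the 55 genes, 48 had at least 1 FPKM in both varieties. A rise in 162 without a call in 13-5A was found in 36 genes both with FPKM as deposited and with equal totals. The share of all tested genes called as rising was 10.2% in 162 and 11.1% in 13-5A.

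MELO3C002315.2 rose in both varieties and, in 162, had the largest change of any named gene. Its 162 libraries went from 0.345, 0.194 and 0.525 FPKM at 0 h to 71.3, 95.7 and 163 FPKM at 12 h. Those of 13-5A went from 3.33, 1.51 and 2.74 FPKM to 20.8, 32.0 and 29.9 FPKM. Every 162 library was below every 13-5A library at 0 h and above every one at 12 h, so the order of the varieties turned over. The 162 level at 0 h rested on 94 reads in 3 libraries. Changes were 6.28 (SE 0.29) in 162 and 3.03 (SE 0.29) in 13-5A, and the interaction was 3.25 (SE 0.41, adjusted p = 0.00232). Its size depended on how low levels were treated. With a pseudocount of 0.1 it was 4.46 (SE 0.52). With voom, limma's method for counts, on the recovered reads it was 4.81 (SE 0.72).

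MELO3C025105.2 had the largest interaction among genes that rose in 162 without a call in 13-5A and had at least 1 FPKM in both. It went from 6.69, 2.69 and 2.53 FPKM to 45.1, 30.7 and 53.5 FPKM in 162. In 13-5A it stood at 1.52, 1.15 and 0.659 FPKM at 0 h and 1.28, 4.20 and 1.05 FPKM at 12 h. The times overlapped in 13-5A, and 162 was the higher variety at both times. The interaction was 2.74 (SE 0.53, adjusted p = 0.0201), but with voom, limma's method for counts, on the recovered reads the adjusted p was 0.0891, with a pseudocount of 0.1 it was 0.0598, and it passed the threshold in 10 of the 12 fits that left out a library.

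MELO3C002739.2 stands for the genes that were almost silent in a variety. It rose in 162 from 0.154, 1.37 and 0.144 FPKM to 24.9, 20.6 and 13.9 FPKM. The 3 libraries of 13-5A together held 1 read at 0 h and 13 at 12 h. The interaction was 3.62 (SE 0.39, adjusted p = 0.000612), and with voom it was 3.90 (SE 1.85, adjusted p = 0.285). Whether reads of 13-5A failed to map to this gene was not tested.

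Among negative interactions a rise in 13-5A without a call in 162 was the most frequent pattern under median-ratio scaling, with 67 genes. With upper-quartile scaling and with factors from genes of at least 10 FPKM, a fall in 162 without a call in 13-5A was more frequent, with 71 against 59 and 62 against 61 genes. That order was also found with array weights and without replicate 2 of 162 at 0 h or replicate 1 of 162 at 12 h. The median level of the 67 genes that rose in 13-5A went from 9.62 to 35.7 FPKM in 13-5A and from 15.5 to 17.4 FPKM in 162. Of these 67, 59 had at least 1 FPKM in both varieties. A further 13 genes rose in both varieties but further in 13-5A, from a median of 1.80 to 21.0 FPKM against 4.70 to 18.8 FPKM in 162.

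MELO3C005673.2 had the largest negative interaction among genes with at least 1 FPKM in both varieties. The varieties began alike, at 12.0, 12.1 and 10.01 FPKM in 162 and 8.71, 11.4 and 8.77 FPKM in 13-5A. At 12 h it stood at 30.9, 26.1 and 7.76 FPKM in 162 and at 255, 106 and 147 FPKM in 13-5A. The 162 libraries disagreed at 12 h, since 2 were above all 0 h libraries of the variety and replicate 3 was below them. The interaction was -3.25 (SE 0.59, adjusted p = 0.0155), and without replicate 1 of 13-5A at 0 h its adjusted p was 0.0512.

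MELO3C032763.2 came next in size, at -3.15 (SE 0.68, adjusted p = 0.027), and was less firm. In 13-5A it rose from 36.4, 87.4 and 15.8 FPKM to 202, 110.4 and 227 FPKM. In 162 it stood at 11.6, 9.42 and 14.7 FPKM at 0 h and at 7.21, 3.91 and 5.71 FPKM at 12 h. The 13-5A libraries at 0 h were widely spread. The call was lost in 9 of the 23 other fits, with an adjusted p of up to 0.0752. The call passed in 6 of the 12 fits that left out a library.

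MELO3C002579.2 rose in both varieties and further in 13-5A. It went from 4.88, 6.09 and 7.09 FPKM to 24.2, 41.5 and 41.5 FPKM in 162, and from 6.82, 2.62 and 4.23 FPKM to 116, 95.4 and 105 FPKM in 13-5A. The varieties overlapped at 0 h and not at 12 h. The interaction was -1.96 (SE 0.38, adjusted p = 0.0197), and without replicate 1 of 13-5A at 12 h the adjusted p was 0.0566.

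MELO3C024499.2, nearly without reads in 162, rose in 13-5A from 10.3, 0.911 and 11.9 FPKM to 136, 108 and 95.9 FPKM. Together the 162 libraries held 15 reads at the first time and 7 at the second. Its interaction of -4.15 (SE 0.75, adjusted p = 0.0151) was the largest of either sign, and with voom it was -5.15 (SE 3.36, adjusted p = 0.45). As in MELO3C002739.2, mapping of reads was not tested.

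Genes with a mean under 1 FPKM in a variety made up 665 of the tested genes, and 61 of them had an interaction. They passed the filter through the variety in which they are high, where any change enters the interaction almost in full, so their share of 9.17% is not comparable with the 2.57% of the 14927 genes with at least 1 FPKM in both varieties. In 38 of the 61 the variety with little expression was 162, and in 23 it was 13-5A. How all 665 divide between the varieties was not counted, so these counts have no share to be set against. In such genes the change of the low variety depends on the pseudocount. The 61 genes are included in the counts and median levels given for the response patterns. The other 384 interactions, 227 positive and 157 negative, were in genes measured in both varieties.

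Genes that fell in 162 without a call in 13-5A numbered 54 under median-ratio scaling, and 42 of them had at least 1 FPKM in both varieties. The median of the 54 went from 11.4 to 3.34 FPKM in 162 while it stood at 3.83 FPKM at both times in 13-5A. With FPKM as deposited this pattern had 116 genes, with equal totals 98 and with array weights 159. MELO3C012825.2 had the largest interaction of this pattern among genes measured in both. Its 162 libraries went from 27.4, 30.5 and 27.0 FPKM to 8.90, 7.51 and 4.98 FPKM, and its 13-5A libraries from 89.4, 96.0 and 115 FPKM to 189.5, 190.0 and 159 FPKM. In 13-5A the times did not overlap either, with a log2 difference of 0.84 (SE 0.18, adjusted p = 0.00218) that was short of the fold minimum. The gene was lower in 162 at the start and further below at the end. Its interaction was -2.72 (SE 0.26), with the smallest adjusted p of the named genes, 0.000287, and at most 0.00201 over the 23 other fits.

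A fall in both varieties that went further in 162 was found in 5 genes. MELO3C006819.2 had the largest interaction among them, and it fell from 45.8, 72.3 and 26.4 FPKM to 2.52, 1.74 and 0.215 FPKM in 162. In 13-5A it fell from 9.61, 15.1 and 10.2 FPKM to 6.87, 3.35 and 2.57 FPKM. The 162 libraries were all above those of 13-5A at 0 h and all below them at 12 h, the last by a narrow margin between 2.52 and 2.57 FPKM. The interaction was -3.00 (SE 0.61, adjusted p = 0.0232), and the call was lost in 5 of the 23 other fits, with adjusted p up to 0.0751 under voom.

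**Figure D3:**
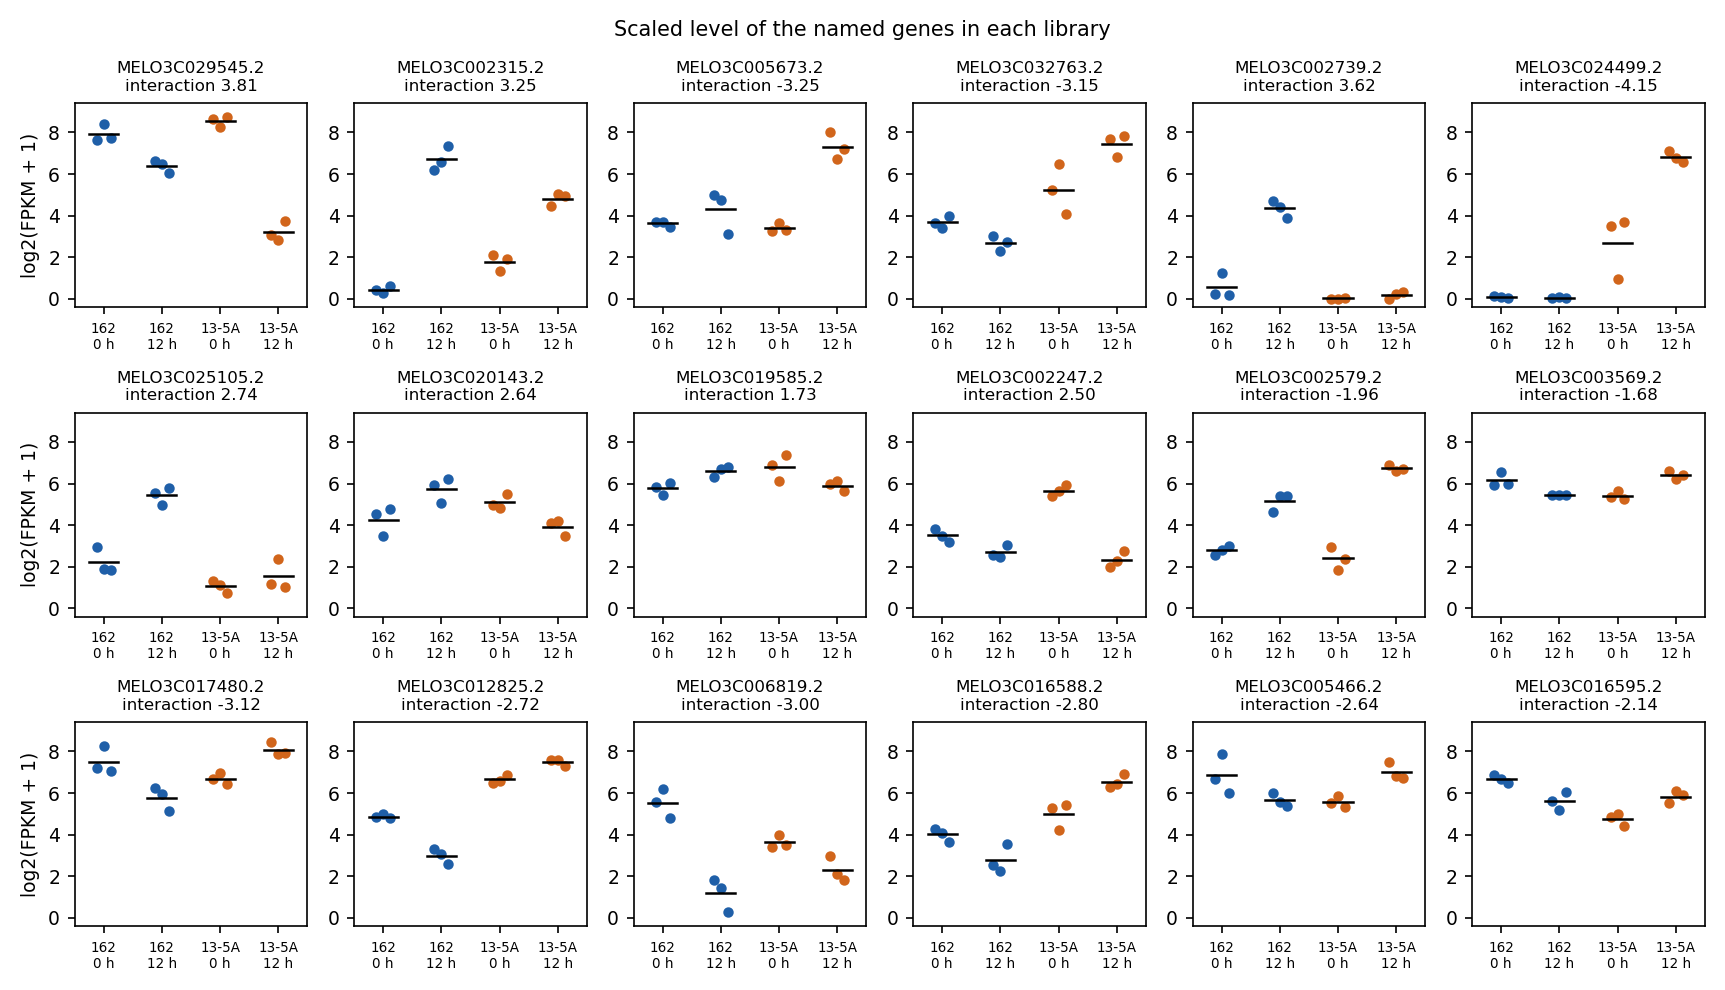
Each panel is a named gene, with log2(scaled FPKM + 1) on the y axis and the 4 groups on the x axis; points are libraries (3 per group), blue for 162 and orange for 13-5A, and bars are group means. In MELO3C029545.2 the 13-5A points drop from the top of the range to below all 162 points, and in MELO3C017480.2 the varieties cross in opposite directions.

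Opposite movement, with a called rise in a variety and a called fall in the other, was seen in 5 genes, all with a called interaction. MELO3C017480.2 had the largest interaction of these. It fell in 162 from 145, 303 and 131 FPKM to 74.1, 61.9 and 34.3 FPKM, and rose in 13-5A from 99.98, 123 and 85.4 FPKM to 351, 234 and 245 FPKM. Every 162 library was above every 13-5A library at 0 h and below every one at 12 h. The difference at 0 h, 0.81 (SE 0.34, adjusted p = 0.078), was not called. The interaction was -3.12 (SE 0.48, adjusted p = 0.00638).

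MELO3C016588.2 fell in 162 from 18.2, 16.1 and 11.7 FPKM to 4.89, 3.69 and 10.6 FPKM and rose in 13-5A from 38.0, 17.6 and 42.1 FPKM to 77.1, 84.7 and 121 FPKM, with an interaction of -2.80 (SE 0.52, adjusted p = 0.0158). MELO3C005466.2 fell in 162 from 99.9, 231 and 64.0 FPKM to 63.4, 46.2 and 41.1 FPKM and rose in 13-5A from 45.1, 56.8 and 39.2 FPKM to 178, 113 and 106 FPKM, at -2.64 (SE 0.54, adjusted p = 0.0232). Its interaction call was lost in 4 of the 12 fits that left out a library, with an adjusted p of up to 0.0713. In both of these and in the next gene the times did not overlap within either variety. MELO3C016595.2 fell in 162 from 117, 101 and 87.4 FPKM to 47.6, 35.3 and 64.4 FPKM and rose in 13-5A from 28.1, 30.9 and 20.3 FPKM to 44.8, 67.4 and 58.0 FPKM, at -2.14 (SE 0.33, adjusted p = 0.00675). It began 1.91 (SE 0.23) higher in 162, and the difference at 12 h was -0.23 (SE 0.23, adjusted p = 0.526).

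The reverse, a rise in 162 and a fall in 13-5A, was seen in MELO3C020143.2. Its 162 libraries went from 22.4, 10.2 and 26.4 FPKM to 59.95, 32.4 and 72.4 FPKM, and its 13-5A libraries from 30.7, 27.5 and 43.7 FPKM to 16.0, 17.3 and 10.1 FPKM. The 162 group was the lower one at 0 h and the higher one at 12 h, with no overlap at either time. The difference at 0 h, -0.83 (SE 0.36, adjusted p = 0.0922), was not called. The interaction was 2.64 (SE 0.51, adjusted p = 0.0195). Without replicates 1 and 3 of 13-5A at 0 h in turn its adjusted p was 0.0524 and 0.0518. The number of genes with opposite calls ran from 3 to 8 over the other fits. It was 8 with array weights and without replicate 2 of 13-5A at 0 h, and 3 without replicate 1 or 3 of that group, replicate 1 of 162 at 0 h or replicate 2 of 162 at 12 h. It was 4 with upper-quartile scaling and with factors from genes of at least 10 FPKM, and 7 with a pseudocount of 0.1.

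In 74 genes, 37 of each sign under median-ratio scaling, the interaction was called although neither variety's change was. Median changes in the positive ones were 0.65 in 162 and -0.66 in 13-5A, and in the negative ones -0.65 and 0.61. Moderate shifts in opposite directions thus added up to a called difference. The even split rested on the scaling. With FPKM as deposited 24 such genes were positive and 92 negative, and with equal totals 21 and 84. Upper-quartile scaling gave 33 and 39. MELO3C003569.2 stood at 60.4, 92.8 and 62.1 FPKM in 162 at 0 h and at 43.0, 43.4 and 42.9 FPKM at 12 h. In 13-5A it stood at 40.3, 49.0 and 36.9 FPKM and then at 95.2, 73.5 and 84.0 FPKM. The times did not overlap in either variety, with log2 changes of -0.69 (adjusted p = 0.0071) in 162 and 0.99 (adjusted p = 0.000668) in 13-5A. Both changes were short of the fold minimum alone, and the interaction was -1.68 (SE 0.25, adjusted p = 0.00577). MELO3C019585.2 was the positive counterpart, with 55.9, 42.6 and 65.0 FPKM and then 79.3, 103 and 111 FPKM in 162. In 13-5A it had 117, 69.7 and 163 FPKM and then 61.2, 69.0 and 48.4 FPKM. The times lay close in 13-5A, at 69.7 and 69.0 FPKM for the nearest libraries. Changes of 0.84 (adjusted p = 0.0256) in 162 and -0.89 (adjusted p = 0.0184) in 13-5A were again short of the fold minimum alone. The interaction of this gene was 1.73 (SE 0.39, adjusted p = 0.0353). Its call was lost in 13 of the 23 other fits.

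The interaction equals the difference between varieties at 12 h minus the difference at 0 h. Each gene was therefore also sorted by when the varieties were called apart. A missing call does not show equal levels. MELO3C017480.2 and MELO3C020143.2, for example, were not called at 0 h although their varieties did not overlap then. Over all tested genes the varieties were called apart in 13.2% at 0 h, with 6.88% higher and 6.3% lower in 162. At 12 h they were called apart in 7.61%, with 4.01% higher and 3.6% lower in 162. Among the 445 genes with an interaction, 184 (41.3%) were called apart at 0 h and not at 12 h. Another 103 (23.1%) were called apart at 12 h and not at 0 h. At both times 47 genes were called apart, 40 on the same side and 7 on opposite sides, and 111 (24.9%) were called at neither time. Over all tested genes, calls at 0 h also outnumbered those at 12 h, with 2054 against 1187. An excess at 0 h was thus not particular to genes with an interaction. The shares apart at a single time were not counted over all tested genes. Among genes with an interaction, those apart at 0 h alone outnumbered those apart at 12 h alone in 22 of the 23 other fits. The exception was the fit without replicate 2 of 13-5A at 12 h, with 98 against 110 genes.

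Genes called apart at 0 h alone were of both kinds. In 123 genes with a positive interaction the level was lower in 162 at 0 h, by a median of -1.45, and the median difference at 12 h was -0.02. In 61 with a negative interaction it was higher in 162 at 0 h by 1.43, and the median at 12 h was 0.03. Genes called apart at 12 h alone numbered 52 higher in 162, from a median of -0.09 to 1.56, and 51 lower in 162, from 0.16 to -1.54. MELO3C002247.2, described above, belongs to the first kind, and MELO3C029545.2 and MELO3C005673.2 to those called apart at 12 h alone. MELO3C002315.2 belongs to the 4 positive genes that turned from lower to higher in 162.

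**Figure D4:**
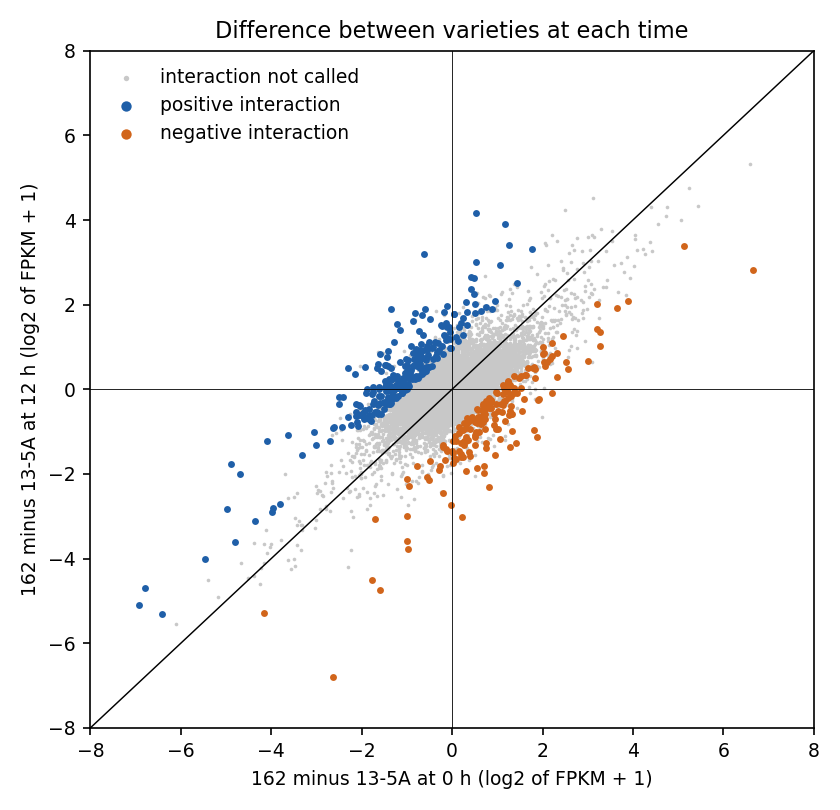
Each point is a tested gene, with the log2 difference of 162 minus 13-5A at 0 h on the x axis and at 12 h on the y axis; the diagonal marks an unchanged difference. The 123 positive genes called apart at 0 h alone lie left of the vertical axis near a 12 h difference of 0. The 61 negative ones mirror them on the right.

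Interactions were found at all levels of expression. Of 4052 genes with a mean from 1 up to 5 FPKM, 2.89% had an interaction, and the share was 2.61% of 6062 genes from 5 up to 20 FPKM. It was 3.06% of 4418 genes from 20 up to 100 FPKM and 3.30% of 1060 genes of at least 100 FPKM. Positive calls outnumbered negative ones in each of these classes, with 68 against 49, 103 against 55, 74 against 61 and 20 against 15, under median-ratio scaling.

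The number of interactions depended on single libraries. Without replicate 1 of 13-5A at 0 h, 145 genes were called, and 142 of these were among the 445. The count was 216 without replicate 3 of that group and 199 without replicate 1 of 13-5A at 12 h. Leaving out replicates 1 and 2 of 162 at 12 h gave 275 and 238. It rose to 571 without replicate 3 of 162 at 12 h, by a factor under 1.5. The estimate kept its sign in at least 440 of the 445 genes in each of the 12 fits that left out a library, and no gene was called with the opposite sign in any of them.

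In 80 genes, 55 positive and 25 negative, the interaction was called with the same sign in all 23 other fits. All but 1 of them had at least 1 FPKM in both varieties. Their median interaction was 1.62 in size, against 1.41 for the 445, which follows in part from the repeated threshold. Their median level was 24.0 FPKM against 13.4 FPKM, and the fit with a minimum of 5 FPKM kept all lower genes out of the set. By pattern, 21 fell in 13-5A without a call in 162, 19 rose in 162 without a call in 13-5A, 11 rose in 13-5A without a call in 162, and 8 fell in 162 without a call in 13-5A. MELO3C029545.2, MELO3C002315.2, MELO3C002247.2, MELO3C003569.2, MELO3C017480.2, MELO3C012825.2, MELO3C016588.2 and MELO3C016595.2 were among the 80.

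**Figure D5:**
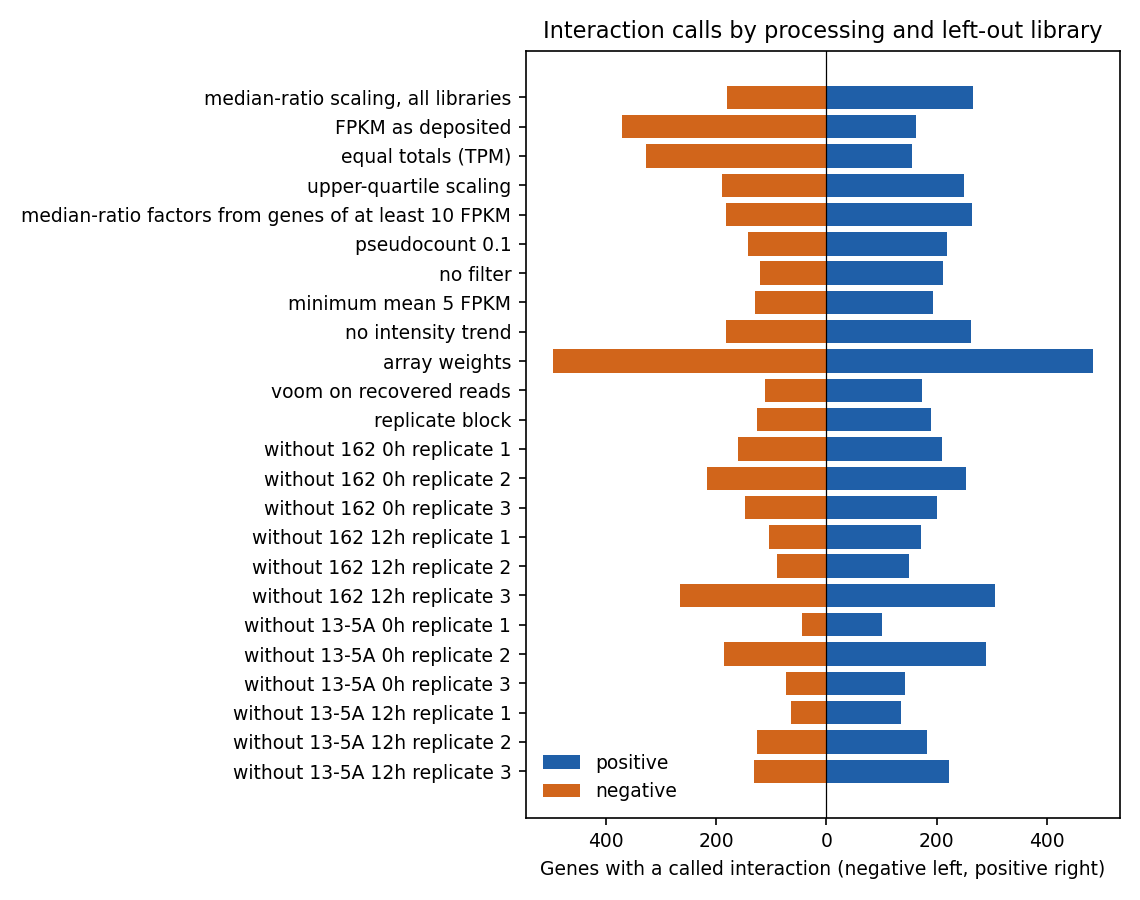
Bars give the number of genes with a called interaction under each processing choice or with a library left out, negative to the left and positive to the right. The bars are shortest without replicate 1 of 13-5A at 0 h (145 genes) and longest with array weights (979 genes), and negative genes are in the majority with FPKM as deposited, equal totals and array weights.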

How the data were processed

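Total RNA from leaves was extracted with TRIzol, made into libraries with a VAHTS Universal V6 kit and sequenced as paired ends on an Illumina NovaSeq instrument, per the labels' protocols. The authors deposited FPKM. The sources used here do not give the aligner, counter, genome build or annotation. Each column name equals a sample's description, and 0 further columns were present. Whole reads were recovered by solving for gene lengths and library totals jointly: 100% of values in tested genes were whole within 0.001 reads, and a gene of the median length, 1645 bases, has about 73 reads at 1 FPKM. On simulated reads 12 of 12 totals were recovered; the unit recovered may be a read or a read pair. Read counts cover counting error only.

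FPKM were divided by median-ratio factors (tested genes above 0 in all 12 libraries), transformed to log2(FPKM + 1) and fitted by limma (version 3.58.1, R 4.3.3) with its trend option and no term but the 4 groups, which left 8 residual degrees of freedom. Adjustment was over all 15592 tested genes for each of 5 comparisons. Other steps used Python 3.11.15, numpy 2.4.6, pandas 2.3.3 and matplotlib 3.10.9. On simulated data with 200 genes changed in 162 at 12 h, the interaction fit found 75% of the 100 with a 3-fold change and 97% of the 100 with a 6-fold change, and it called 6 of the unchanged among 15544 genes. The simulation gave every other gene the same mean in all 4 groups and let genes vary independently. Its few false calls thus do not measure how many of the real calls are false.

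The interaction, the named genes' rule and the alternatives were chosen with earlier results of these data known. Named genes are called genes averaging 5 FPKM or more: the 2 largest interactions in each direction with at least 1 FPKM in both varieties, the largest in each direction with less in a variety, the largest of each response pattern, and genes called in opposite directions. Alternatives were 4 other scalings, a pseudocount of 0.1, no filter, a minimum of 5 FPKM, no trend, array weights, no fold minimum, voom, leaving out each library, and a replicate block. No library repeats another: chi-square per gene between replicates was 37.6 to 263, where sampling noise gives about 1.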

Additional observations from a re-analysis of the deposited data

Results flagged for a closer look

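The change over 12 h differed between 162 and 13-5A by limma's interaction test in 445 genes, and the named genes among them are listed here for that reason. Positive interactions on the log2 scale were 3.81 for MELO3C029545.2, 3.62 for MELO3C002739.2, 3.25 for MELO3C002315.2, 2.74 for MELO3C025105.2, 2.64 for MELO3C020143.2, 2.50 for MELO3C002247.2 and 1.73 for MELO3C019585.2. Negative ones were -4.15 for MELO3C024499.2, -3.25 for MELO3C005673.2, -3.15 for MELO3C032763.2, -3.12 for MELO3C017480.2, -3.00 for MELO3C006819.2, -2.80 for MELO3C016588.2, -2.72 for MELO3C012825.2, -2.64 for MELO3C005466.2, -2.14 for MELO3C016595.2, -1.96 for MELO3C002579.2 and -1.68 for MELO3C003569.2. Adjusted p-values ran from 0.000287 for MELO3C012825.2 to 0.0353 for MELO3C019585.2. MELO3C024499.2 and MELO3C002739.2 passed the filter through the variety in which they are high, where any change enters the interaction almost in full. With voom their adjusted p-values were 0.45 and 0.285. Groups of 3 libraries are too small for a test of outlying values.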

How the results depend on the processing

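Of 414 values of the 18 named interactions under alternatives that could lose a call, 373 stayed past the threshold with the same sign, 41 were no longer called and 0 changed sign; since these genes were chosen as the largest, this overstates stability. Of 192 counts, 156 stayed within 1.5 times. The positive and negative counts became 162 and 370 with FPKM as deposited and 155 and 328 with equal totals. Array weights gave 979 calls, 483 positive and 496 negative, with 876 in genes measured in both varieties. Voom on the recovered reads gave 284, 173 positive and 111 negative. Without the fold minimum, by construction, the changes in 162 and 13-5A had 7531 and 7840 calls and the varieties at 0 h and 12 h 5799 and 3373. For the other moves the cause was not tested.

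With single libraries left out there were 145 to 571 interactions, 101 to 305 positive and 44 to 266 negative, with 114 to 506 in genes measured in both varieties. Calls for the change over time were 2691 to 3396 for 162 and 3226 to 3606 for 13-5A. Those between varieties ran from 1902 to 2171 at the start and from 962 to 1356 after 12 h. The labels do not say whether equal replicate numbers mark a shared batch. Deviations from group means correlated between -0.31 and 0.31 in the 18 same-numbered pairs and passed 0.1 in 2. With 3 libraries per group these correlations cannot exclude a pairing. The replicate block gave 315 interactions. In the genes with few reads in a variety, depth limits the interaction.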

Other observations

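Leaving out single libraries of 13-5A at 0 h gave 145, 476 and 216 interactions for replicates 1, 2 and 3, and single libraries of 162 at 12 h gave 275, 238 and 571, against 445 with all libraries. Replicate 1 of 13-5A at 0 h, whose removal gave 145 calls, correlated with the others of its group at 0.984 and 0.987 and had an array weight of 3.70, the highest of the 12 libraries. Replicate 3 of 162 at 12 h, whose removal gave 571 calls, correlated with its group at 0.961 and 0.968 and had the lowest weight, 0.363. Of the 571 genes, 369 were among the 445, which is 64.6% of the former and 82.9% of the latter.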
